A study of Rattus norvegicus with 8 samples.

Results

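The 9 genes described here are those of the dopamine receptors (Drd1, Drd2, Drd3, Drd4 and Drd5) and of 4 proteins known from striatal neurons: the phosphoprotein Ppp1r1b, the opioid precursor Penk, the adenosine receptor Adora2a and the signalling regulator Rgs9. They were picked by the gene name that the array files give to each probe, where Drd1 is written Drd1a, and they are 9 of 19308 named genes. Between them they have 11 probes, with 2 probes each for Drd2 and Ppp1r1b, and 8 of the 9 were bright enough to be tested.

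All animals were Sprague Dawley rats, male and 3 months old, and the RNA was hippocampal. The treated group, written Y+I in the sample labels and standing for yohimbine with imipramine per the series title, held 4 animals treated for 7 days. The control group held 4 animals given vehicle for 7 days. Tissue is described as taken 2 hours after treatment in both groups, and doses are not given in the sources used here. Yohimbine blocks alpha-2 adrenoceptors and imipramine, a tricyclic antidepressant, keeps noradrenaline and serotonin from being taken up again. Neither drug was given alone, so the values belong to the combination.

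Dopamine receptors fall into a D1 class (Drd1 and Drd5), which raises cAMP, and a D2 class (Drd2, Drd3 and Drd4), which lowers it. In the striatum, neurons of the direct pathway carry Drd1, while neurons of the indirect pathway carry Drd2, Adora2a and Penk, and both kinds are rich in Ppp1r1b and in the striatal form of Rgs9. The hippocampus is no striatal tissue: its dopamine fibres are sparse, Drd5 is a receptor of its pyramidal neurons, and Penk is found in some of its granule cells and interneurons.

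Each gene was read by 60-base probes, and 4 are printed here, so that a reader can see what the array hybridised to. Those of Drd3, Ppp1r1b and Penk carry a recognisable stretch of the protein code. Positions are those of the array files on rat build rn4, and the files do not say which exon or untranslated part a probe covers. The Drd2 sequence is the dimmer of that gene's 2 probes, and no stretch is marked in it. Capitals in the Drd3 probe mark codons of the asparagine-proline-tyrosine motif that closes the last membrane helix of many such receptors. Capitals in the Ppp1r1b probe mark a run of acidic codons, and those in the Penk probe spell Met-enkephalin, a peptide sequence within the Penk precursor.
Drd2, chr8:52706533-52706592, plus strand: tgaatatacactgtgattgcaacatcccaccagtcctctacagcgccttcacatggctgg
Drd3, chr11:58446987-58447046, minus strand: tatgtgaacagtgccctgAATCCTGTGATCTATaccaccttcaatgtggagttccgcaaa
Ppp1r1b, chr10:87129206-87129265, plus strand: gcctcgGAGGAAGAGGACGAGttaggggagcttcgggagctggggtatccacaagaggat
Penk, chr5:17509637-17509696, minus strand: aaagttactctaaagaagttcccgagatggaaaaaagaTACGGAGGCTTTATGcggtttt

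Searched in any frame on the strand as printed, the receptor motif occurred in 0.609% of the 30367 probes of the array and a run of at least 4 acidic codons in 1.19%. The enkephalin codons occurred in 1 probe, that of Penk. Among the 55 pairs that the 11 probes form, the longest shared run of letters was 9 bases, and their GC content lay between 38.3% and 60%.

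Values below are log2 signals minus the array's 75th percentile, so a value of 0 means a spot as bright as that percentile. They compare a probe between animals and not one probe with another. All 8 arrays lay on 1 slide, with the Y+I arrays in its second row and the vehicle arrays in its first, so that row and treatment cannot be told apart. The Y+I arrays were dimmer: 64.4% to 74.8% of their spots were well above background, against 76.4% to 79.7% on vehicle arrays, and the median SD between animals over all features was 0.239 in the Y+I group and 0.134 in the vehicle group. Replicates were separate animals.

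Drd2 fell in Y+I hippocampi, to about 0.659 of the vehicle level, and was the 1 gene of the 8 tested that passed the threshold. Over all 18803 features tested (named genes, each by its brightest probe, and unnamed probes), 439 passed, 139 higher and 300 lower, which is 2.33% in either direction, 1.6% lower and 0.739% higher. Drd1, Drd4, Drd5, Ppp1r1b, Penk, Adora2a and Rgs9 did not pass, and Drd3 was not tested. Of the 8 tested, 4 had an unadjusted p under 0.05, as did 15.6% of all features. The measured values of all 8 lay below 0 as log2 differences, where 54.1% of all features did, although that of Adora2a was within its error of 0. Their median was -0.55, against -0.02 over all features. In 4 of the 8 (Drd1, Drd2, Penk and Rgs9) the Y+I and vehicle animals did not overlap, as for 11.7% of all features. Drd1 and Drd4 were kept through the vehicle arrays alone, and the Y+I signal of Drd1 was not well above background on any array. Of the 6 genes well above background on all 8 arrays, 1 passed, 3 did not overlap, 3 had an unadjusted p under 0.05 and the median was -0.55. Over the 15181 features of that kind, 2.06% passed, 12.03% did not overlap, 14.68% had an unadjusted p under 0.05 and the median was 0.00.

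**Figure D1:**
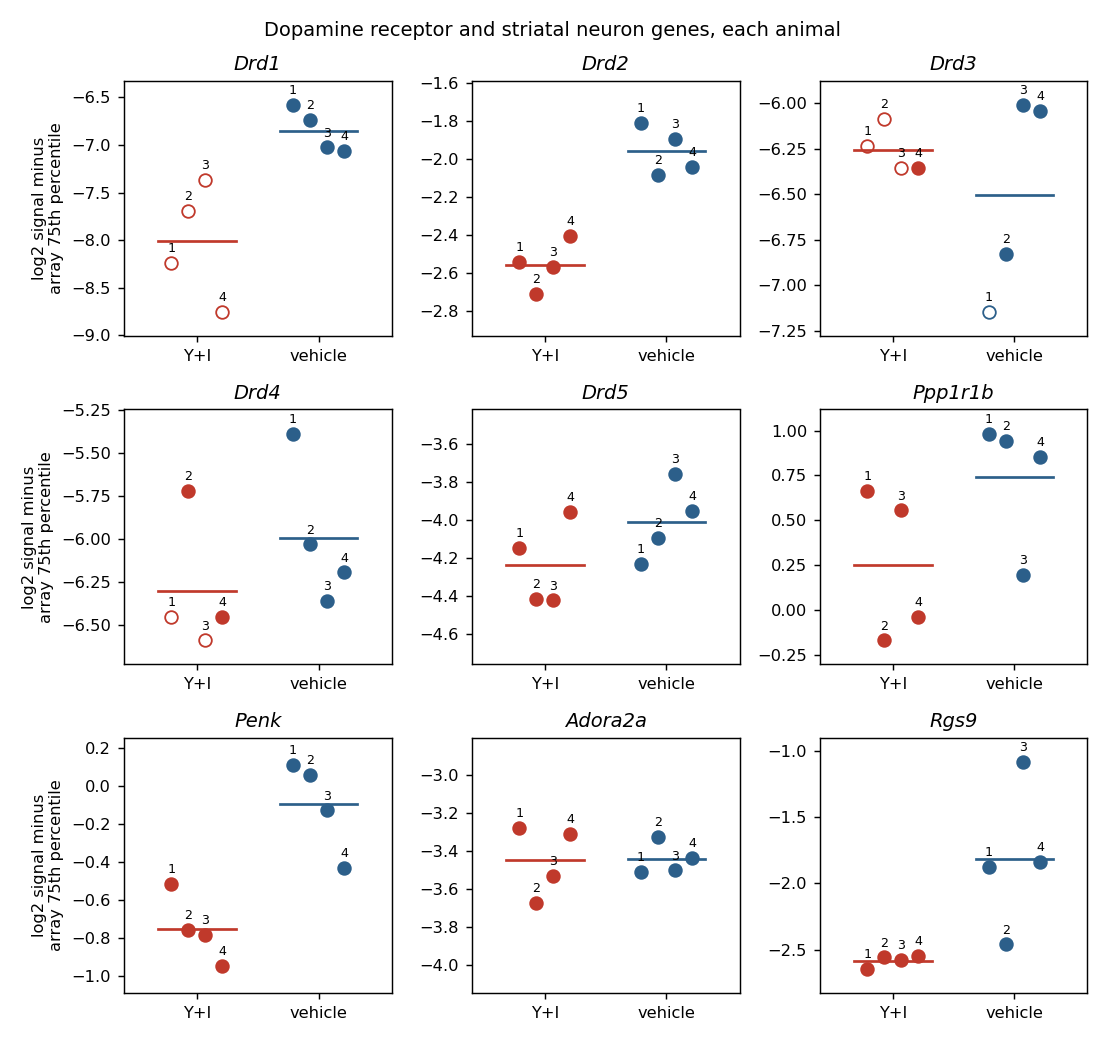
Signal of each of the 9 genes in each animal, as log2 signal minus the array's 75th percentile (vertical axis, a separate range per panel), with Y+I left and vehicle right, animal numbers beside the points and a line at each group mean. Open points were not well above background. The Y+I animals lie wholly below the vehicle animals for Drd1, Drd2, Penk and Rgs9, and the groups overlap for the other 5.

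Among the receptors of the D2 class, Drd2 was the one well above background on all 8 arrays. Its brighter probe, on chromosome 8 from 52707670 to 52707729 on the plus strand, gave -2.54, -2.71, -2.57 and -2.40 in Y+I animals, against -1.81, -2.08, -1.89 and -2.04 in vehicle animals. The highest Y+I animal was thus below the lowest vehicle animal. The means were -2.56 ± 0.13 in the Y+I group and -1.96 ± 0.13 in the vehicle group (SD, n = 4 each). The log2 difference was -0.60 ± 0.11 (SE, with a 95% interval of -0.84 to -0.36), and its adjusted p was 0.0278 by limma with Benjamini-Hochberg adjustment over all features, rank 222 by p. In bulk tissue, fewer cells with Drd2 and less Drd2 RNA per cell cannot be told apart.

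The call on Drd2 was a narrow one. It held in 11 of 13 alternatives other than leaving out single arrays. With 1 array left out it held without Y+I animal 2 (adjusted p 0.0498) and without Y+I animal 4 (0.0343). It missed the threshold without Y+I animal 1 (adjusted p 0.0638), Y+I animal 3 (0.0512), vehicle animal 1 (0.0768), vehicle animal 2 (0.0578), vehicle animal 3 (0.0842) and vehicle animal 4 (0.0847), with log2 differences of -0.65 to -0.55 over all 8 omissions.

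Drd2 was printed 10 times on each array, which shows how well the spots repeat. The median SD among the 10 spots of an array was 0.073 on Y+I arrays and 0.046 on vehicle arrays, below the SD between animals. Its processed signal, in scanner units before scaling, averaged 198 to 332 on Y+I arrays and 483 to 580 on vehicle arrays. The gene's dimmer probe, whose sequence is printed above, also had 10 spots and gave -5.91, -6.17, -6.32 and -5.86 in Y+I animals, against -5.58, -5.54, -5.73 and -5.52 in vehicle animals. Here too the animals did not overlap. The log2 difference was -0.47 ± 0.12 (SE) with an adjusted p of 0.107 over all probes by limma, and the probe was well above background on 1 of 4 Y+I arrays and 4 of 4 vehicle arrays.

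**Figure D2:**
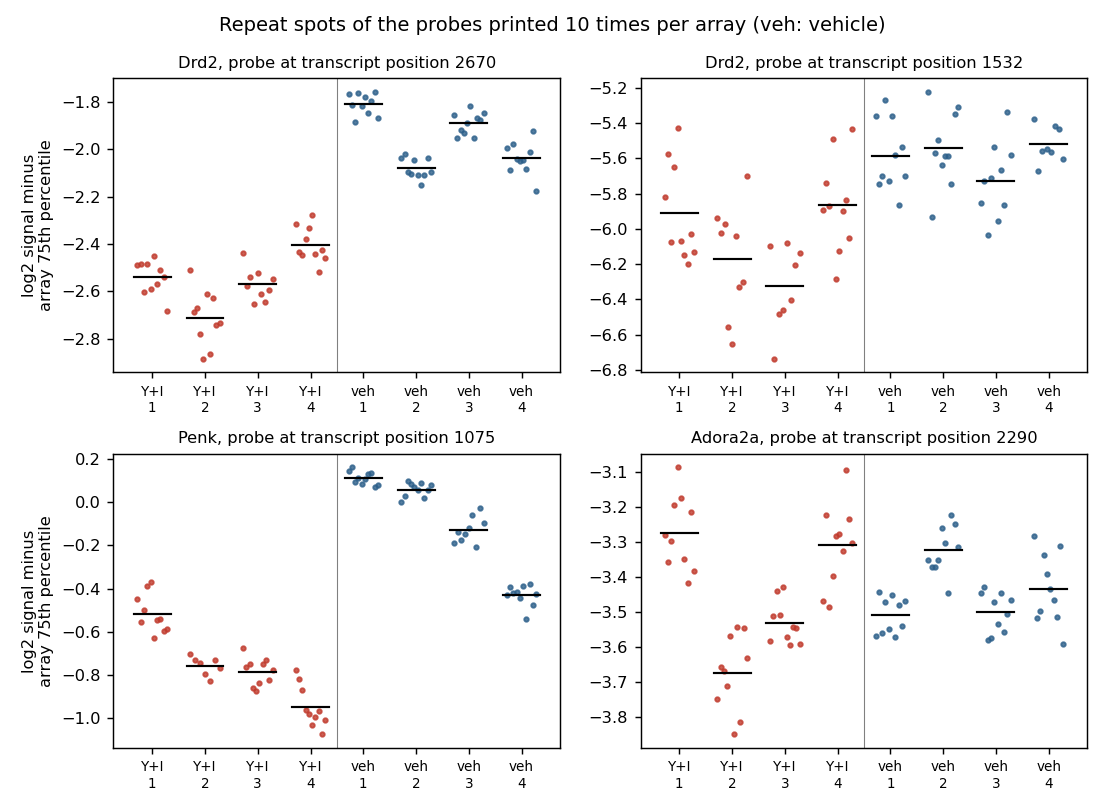
Every spot of the 4 probes printed 10 times per array (both of Drd2, and those of Penk and Adora2a), as log2 signal minus the array's 75th percentile, with Y+I arrays left of the line and vehicle arrays right of it, and a bar at each array mean. Spots of the brighter Drd2 probe do not overlap between Y+I and vehicle arrays, Penk spots of vehicle animal 4 reach down to those of Y+I animal 1, and Adora2a spots overlap throughout.

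Drd3, whose product acts as an autoreceptor and is best known from the limbic striatum, was near background. Its probe gave -6.23, -6.09, -6.36 and -6.35 in Y+I animals, against -7.15, -6.83, -6.01 and -6.04 in vehicle animals. It was well above background on 1 of 4 Y+I arrays and 3 of 4 vehicle arrays, too few for a test. Vehicle animals were both the highest and the lowest, and the means were -6.26 ± 0.13 in the Y+I group and -6.51 ± 0.57 in the vehicle group (SD, n = 4 each).

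Drd4, known from cortical and hippocampal interneurons, was also near background on its probe on chromosome 1 from 201488725 to 201488784 on the plus strand. It gave -6.45, -5.72, -6.59 and -6.46 in Y+I animals, against -5.39, -6.03, -6.36 and -6.19 in vehicle animals. Y+I animal 2 stood among the vehicle animals, and the other 3 Y+I animals lay below all of them. The log2 difference was -0.31 ± 0.25 (SE), with a 95% interval of -0.88 to 0.26 and an adjusted p of 0.608 by limma. The probe was well above background on 2 of 4 Y+I arrays and 4 of 4 vehicle arrays, and with normexp, another way of correcting the background, its difference was 0.24. It was -0.11 without vehicle animal 1 and -0.51 without Y+I animal 2.

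Of the D1 class, Drd5 was measured on every array. Its probe on chromosome 14, from 77768060 to 77768119 on the minus strand, gave -4.15, -4.42, -4.42 and -3.96 in Y+I animals, against -4.23, -4.10, -3.76 and -3.95 in vehicle animals. The groups overlapped. The means were -4.24 ± 0.23 in the Y+I group and -4.01 ± 0.20 in the vehicle group (SD, n = 4 each), and the log2 difference of -0.23 ± 0.15 (SE), with a 95% interval of -0.56 to 0.11, had an adjusted p of 0.511 by limma. With normexp correction it was 0.05, without vehicle animal 3 -0.14, and without Y+I animals 2 and 3 -0.0445.

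Drd1, the receptor of direct pathway neurons, had a single spot per array, on chromosome 17 from 16657572 to 16657631 on the plus strand, and no Y+I array showed it well above background. The measured values were -8.24, -7.69, -7.37 and -8.75 in Y+I animals, against -6.58, -6.74, -7.03 and -7.06 in vehicle animals, where it was well above background on 4 of 4 arrays. All 4 Y+I spots carried a surrogate value, the number the scanner software writes in place of a signal too close to background. Processed signals were 2.42 to 11.9 units on Y+I arrays and 14.9 to 21.2 units on vehicle arrays.

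The measured means of Drd1 were -8.01 ± 0.61 in the Y+I group and -6.85 ± 0.23 in the vehicle group (SD, n = 4 each), with an adjusted p of 0.0772 by limma. Its vehicle mean lay below -5.86, the mean of the lowest signals that counted as well above background on the Y+I arrays, so no fold is given. The measured difference of -1.16 turned to 0.15 under normexp correction (adjusted p 0.492). It passed the threshold without Y+I animal 3 (adjusted p 0.0397) and under quantile normalization (-1.72, adjusted p 0.00288). Apart from the normexp one, these p-values rest on Y+I surrogate values that are not measured levels. The normexp fit starts from the unprocessed spot and background signals, but no Y+I spot was well above background.

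**Figure D3:**
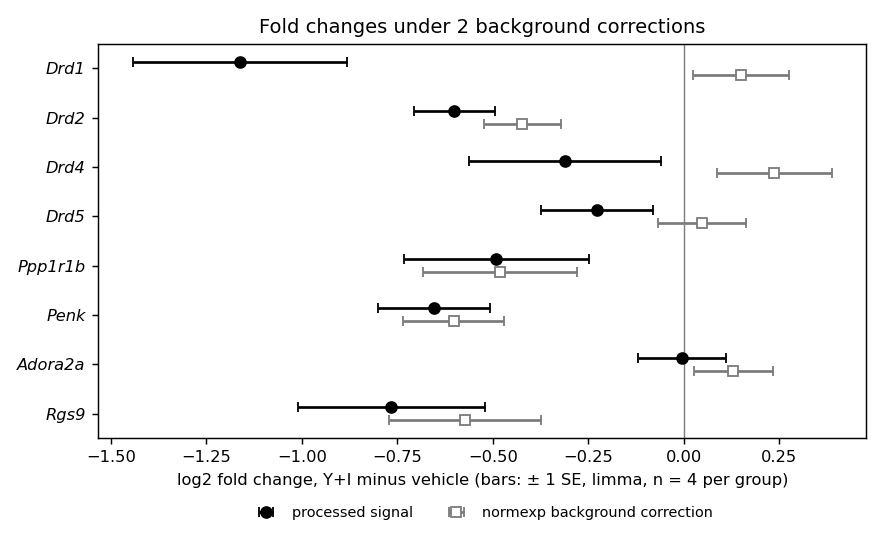
Log2 difference, Y+I minus vehicle, of the 8 genes tested (horizontal axis, with bars of 1 SE from limma, n = 4 per group) from the processed signal (filled) and after normexp background correction (open). Drd1, Drd4, Drd5 and Adora2a stand on the other side of 0 after normexp correction, while Drd2, Ppp1r1b, Penk and Rgs9 stay below 0. The filled Drd1 value is one of surrogate signals on Y+I arrays.

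Ppp1r1b encodes the dopamine- and cAMP-regulated phosphoprotein that inhibits protein phosphatase when protein kinase A has phosphorylated it. Its brighter probe, on chromosome 10 from 87131412 to 87131471 on the plus strand, gave 0.66, -0.17, 0.56 and -0.04 in Y+I animals, against 0.98, 0.94, 0.20 and 0.85 in vehicle animals. The groups overlapped because vehicle animal 3 lay below Y+I animals 1 and 3. The log2 difference of -0.49 ± 0.24 (SE), with a 95% interval of -1.04 to 0.06, had an adjusted p of 0.376 by limma. The probe printed above gave -3.29, -3.86, -3.49 and -3.51 in Y+I animals, against -3.07, -3.18, -3.74 and -3.13 in vehicle animals. Vehicle animal 3 was again the low one of its group, and that probe's difference was -0.25 ± 0.18 (SE, adjusted p over all probes 0.557 by limma).

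Penk, the precursor of the enkephalins, gave -0.52, -0.76, -0.79 and -0.95 in Y+I animals, against 0.11, 0.06, -0.13 and -0.43 in vehicle animals. Every Y+I animal was below every vehicle animal, with vehicle animal 4 next to Y+I animal 1. The means were -0.75 ± 0.18 in the Y+I group and -0.10 ± 0.25 in the vehicle group (SD, n = 4 each).

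The log2 difference of Penk was -0.66 ± 0.15 (SE, with a 95% interval of -0.99 to -0.32), and its adjusted p of 0.0619 by limma missed the threshold. The SD among the 10 spots of the Penk probe had a median of 0.076 on Y+I arrays and 0.040 on vehicle arrays. Penk passed in 5 of 13 other settings, among them normexp correction (-0.60, adjusted p 0.0341) and the fit to probes well above background on all 8 arrays (adjusted p 0.0466). With 1 array left out it passed in 0 of 8 limma fits, with adjusted p-values of 0.0617 to 0.166.

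Adora2a, the adenosine receptor that opposes Drd2 in indirect pathway neurons, showed no such gap. Its probe, on chromosome 20 from 13815854 to 13815913 on the minus strand, gave -3.28, -3.67, -3.53 and -3.31 in Y+I animals, against -3.51, -3.33, -3.50 and -3.44 in vehicle animals. Y+I animals were both the highest and the lowest. The means were -3.45 ± 0.19 in the Y+I group and -3.44 ± 0.09 in the vehicle group (SD, n = 4 each), and the log2 difference of -0.01 ± 0.11 (SE) had an adjusted p of 0.989 by limma. Its 95% interval was -0.27 to 0.25. Whether it differed from the change of Drd2 was not tested.

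Rgs9, a regulator that speeds the shut-off of G proteins behind Drd2 and opioid receptors in the striatum, had a tight Y+I group and a loose vehicle group. Its probe, on chromosome 10 from 98598485 to 98598544 on the minus strand, gave -2.64, -2.56, -2.57 and -2.55 in Y+I animals, against -1.88, -2.46, -1.09 and -1.84 in vehicle animals. The groups did not overlap, but vehicle animal 2 lay close to the Y+I animals. Vehicle animal 3, the highest, rested on 2 spots that read -1.47 and -0.70. The log2 difference was -0.77 ± 0.24 (SE, with a 95% interval of -1.32 to -0.21) and the adjusted p was 0.161 by limma, and it passed in 0 of 8 fits with 1 array left out and in 0 of 13 other alternatives.

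Other genes of the same pathways were counted in lists written with the 9 genes. Of the genes for dopamine synthesis, transport and breakdown, 7 of 8 were measured and 0 passed limma's threshold, while 2 had an unadjusted p under 0.05 (15.6% of all features did). The smallest p there was that of Dbh, which turns dopamine into noradrenaline (0.51 ± 0.18, SE, adjusted p 0.209). The median of that list was 0.00. Of the genes for cAMP signalling and for relatives and partners of Ppp1r1b, 15 of 15 were measured, 0 passed limma's threshold and 4 had an unadjusted p under 0.05, against 15.6% of all features, with a median of -0.02. Arpp21, a cAMP-regulated phosphoprotein, had the smallest p (-0.88 ± 0.22, SE, adjusted p 0.0934), and its other 2 probes read -0.29 and -1.07.

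Among other genes known from striatal projection neurons, 18 of 24 were measured, 2 fell, 0 rose and 16 did not pass. The median was -0.05, with 10 below 0 and 8 above. Of the 18, 9 had an unadjusted p under 0.05, in both directions, against 15.6% of all features. In 5 the groups did not overlap, against 11.7% of all features. Over all features, 1.6% fell and 0.739% rose. Rgs4, a regulator of G protein signalling that acts on many receptors, gave 0.40, 0.33, 0.05 and 0.59 in Y+I animals, against 2.88, 1.99, 1.90 and 2.52 in vehicle animals. The highest Y+I animal (0.59) was below the lowest vehicle animal (1.90). The log2 difference of -1.98 ± 0.22 (SE, adjusted p 0.00616 by limma) passed in 8 of 8 fits with 1 array left out. Rxrg, a retinoid receptor, gave -2.80, -2.92, -3.46 and -3.24 in Y+I animals, against -1.85, -1.30, 0.13 and -0.73 in vehicle animals. Its log2 difference was -2.17 ± 0.38 (SE, adjusted p 0.0272). With 1 array left out Rxrg missed the threshold without Y+I animal 2 (adjusted p 0.0584), Y+I animal 3 (0.0558), Y+I animal 4 (0.0654), vehicle animal 2 (0.0551) and vehicle animal 4 (0.0913).

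Of the other opioid peptides and receptors, 6 of 7 were measured and the median was -0.16. The 1 that passed (2.33% of all features did), Oprl1, was kept through the vehicle arrays alone. Its p thus rests on Y+I values that are not measured levels. Oprl1, the nociceptin receptor, gave -6.40, -7.60, -7.32 and -7.20 in Y+I animals, where it was not well above background on any array, against -5.53, -5.63, -5.49 and -5.64 in vehicle animals. The measured means were -7.13 in the Y+I group and -5.57 in the vehicle group. The adjusted p of 0.0135 by limma tests those values. With each Y+I array raised to its faintest spot well above background, the vehicle mean was 1.22-fold higher. On Y+I arrays 2 and 3 that faintest spot (-5.38 and -5.09) lay above all vehicle values of Oprl1. No lower bound on the fold is therefore given. Under normexp correction its difference was -0.08 (adjusted p 0.749). Pdyn, the precursor of dynorphin, an opioid peptide of direct pathway neurons, stood at -0.40 ± 0.21 (SE, adjusted p 0.396).

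Of the genes for adenosine receptors and adenosine metabolism, 6 of 6 were measured and 0 passed limma's threshold, while 2 had an unadjusted p under 0.05, against 15.6% of all features. The median was 0.01, and the smallest p was that of Nt5e, the enzyme that makes adenosine outside the cell (0.88 ± 0.20, SE, adjusted p 0.066). Of 10 genes for partners of the receptors and of Rgs9, 10 were measured, 1 rose (0.739% of all features did), 0 fell and 9 did not pass. The median was -0.08. Kcnj6, a potassium channel that D2-class receptors open through G proteins, gave -0.40, -0.62, -0.24 and -0.56 in Y+I animals, against -0.98, -1.02, -1.24 and -1.07 in vehicle animals. It was thus higher in every Y+I animal, by 0.62 ± 0.11 (SE, adjusted p 0.03 by limma). Without Y+I animal 1 its adjusted p was 0.0706 and without Y+I animal 3 it was 0.05003, and without each of vehicle animals 1, 2, 3 and 4 it was 0.068, 0.0802, 0.0865 and 0.1004.

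**Figure D4:**
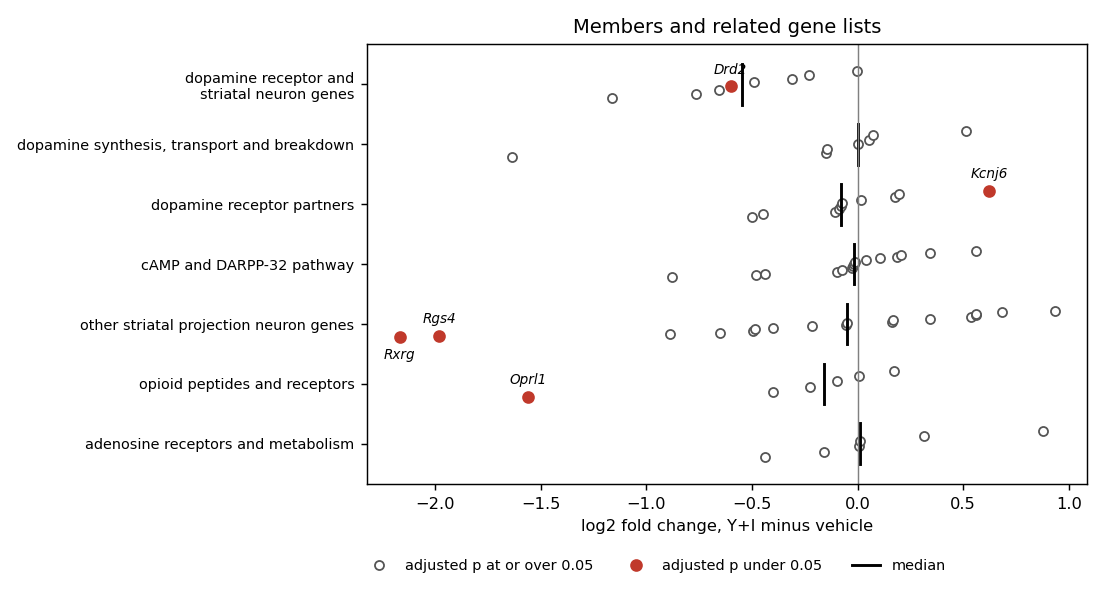
Log2 difference, Y+I minus vehicle (horizontal axis), of each of the 8 genes tested and of the 6 lists around them. Filled points passed an adjusted p of 0.05, and black bars are medians. The Oprl1 point rests on Y+I values not well above background. Drd2, Rgs4, Rxrg and Oprl1 stand below 0 among the filled points, Kcnj6 above, and the 6 list medians lie between -0.16 and 0.01, against -0.55 for the 8 genes tested.

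The label of the tissue was set against markers, and so were the tissues next to it. Of 14 hippocampal neuron markers 13 were measured, 10 of them well above background on all 8 arrays, and their summed level (linear signal over each array's 75th percentile) was 102.6 to 113.7 in Y+I animals and 79.5 to 99.8 in vehicle animals. Of the 13, 0 passed, 8 lay above 0 and 5 below, and the median was 0.37. An unadjusted p under 0.05 was seen in 6 of the 13, against 15.6% of all features, and 4 did not overlap, against 11.7%. Tyro3, counted in the 6 and in the 4, was lower in Y+I animals (-0.35 ± 0.09, SE), and the others counted there were higher. Of 8 striatal projection neuron markers 7 were measured and 0 passed limma's threshold (1 at an unadjusted p under 0.05, against 15.6% of all features), with a summed level of 16.5 to 20.2 in Y+I animals and 15.9 to 22.9 in vehicle animals. In 1 of the 7 the groups did not overlap, as for 11.7% of all features. Such sums are carried by the brightest probes of a list, here that of Rasd2 (means of 3.47 in Y+I and 3.52 in vehicle animals). Of the 8 striatal markers, Gpr6 was too close to background to be kept.

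Summed markers of red cells, thalamus and habenula, neocortex and meninges were lower in Y+I animals, while the hippocampal sum was higher. The part of these markers in the values of Drd2, Penk, Rgs9 and Rgs4 was not tested. Thalamus and habenula markers, 9 of 12 measured with 1 called lower, summed to 2.48 to 2.93 in Y+I animals and 3.76 to 5.03 in vehicle animals. Of 11 neocortical marker symbols 9 were measured, with 0 called lower and 9 of 9 below 0 as log2 differences. Ctgf and Ccn2, both listed, are symbols of the same gene, which was measured as Ccn2. The neocortical markers summed to 3.19 to 3.78 in Y+I animals and 4.36 to 5.26 in vehicle animals. That sum was carried mostly by the brightest probe, that of Nr4a2, and the red cell sum by that of Hbb. Meningeal markers, 10 of 10 measured with 3 called lower, summed to 3.29 to 4.19 in Y+I animals and 5.16 to 6.29 in vehicle animals, and red cell markers, 3 of 5 measured with 2 called lower, to 6.55 to 10.47 in Y+I animals and 15.1 to 17.5 in vehicle animals. Over all features, 54.1% lay below 0 and 1.6% were called lower. Of 8 choroid plexus markers, 2 were measured, at 0.287 to 1.42 in Y+I animals and 0.176 to 4.50 in vehicle animals.

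For the 6 of the 9 genes that were well above background on all 8 arrays, the 3 named genes with the most similar pattern were looked up by Pearson correlation over the 8 arrays among 11052 features. These are descriptions of 8 arrays that share the group difference. Drd2 was most like Dbx2 (r = 0.983), Fbxo16 (0.980) and Lpin3 (0.977). Penk was most like Zfp213 (0.969), Nfatc4 (0.967) and Slc22a18 (0.965), and Rgs9 most like Col6a1 (0.962), Ankrd13d (0.956) and Leo1 (0.952). Drd5 was most like Sema4d (0.989), B3galt1 (0.978) and Ptpn23 (0.960). Ppp1r1b was most like Uqcc1 (0.984), Rab13 (0.984) and Mterf4 (0.982), and Adora2a most like Tollip (0.967), Taf10 (0.952) and Eif5a (0.944). No 2 of the 6 genes had a neighbour in common.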

How the data were processed

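Hippocampal RNA of 4 Y+I and 4 vehicle rats was labelled with Cy3 and read on 1-colour Agilent arrays, per the labels. Per the file headers, the scanner intensity was extracted with Agilent Feature Extraction 10.5.1.1, whose processed signal is background-subtracted. The deposited value table holds log2 values whose scale and centring are not given in the sources used here. Against the scanner values its slope was at least 0.999, its medians lay at -3.51 to -3.35 and its 75th percentiles near 0.01, and it served as an alternative.

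For the main analysis, the processed signal was log2-transformed and each array's 75th percentile over noncontrol spots was subtracted. Outlier spots were dropped and spots of a probe averaged. Saturation was not seen. A probe was kept (21370 of 30367) if, in either group, at least 50% of its spots exceeded background on each of the 4 arrays. Each symbol took its brightest kept probe, giving 18803 features. Symbols came from RefSeq names for 18004 probes by accession, 2320 by symbol and 626 by synonym, 1999 kept the file's name and 7418 had none. Groups were compared two-sided with limma 3.58.1 in R 4.3.3 (lmFit, eBayes, Benjamini-Hochberg over all features, threshold 0.05), and the procedure was tested on simulated data. The number of arrays limits the precision. Python 3.11.15 made the rest.

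The 9 genes, the lists and the named genes (list members past the threshold, otherwise the one with the smallest p) were chosen with earlier results of these data known. Pdyn, Gpr6, Rasd2, Hbb, Nr4a2, Ctgf and Ccn2 were named after their values were seen. A value of 1 marker gene is not reported here. Alternatives changed the normalization, background correction, filter, probe summary, variance model, outlier spots, animal block and arrays used.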

Additional observations from a re-analysis of the deposited data

Results flagged for a closer look

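In 3 of 22 groups of 4 animals examined, 1 animal stood apart from the other 3 by more than Dixon's 95% critical value for the gap over the range; chance flags about 1 in 20 groups. Drd4 was highest in Y+I animal 2, at -5.72 (ratio 0.843), where its 2 spots read -6.25 and -5.19 on a probe near background. Ppp1r1b was lowest in vehicle animal 3 with both of its probes, at 0.20 (ratio 0.835) and at -3.74 (ratio 0.834). The 2 Ppp1r1b values come from the same animal and array and are not independent.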

How the results depend on the processing

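All values here are log2 differences, Y+I minus vehicle, with limma's adjusted p. The number of features changed, 439 with the main values, was 713 under cyclic loess, 3887 with no filter on background (3361 higher and 526 lower), 898 with array weights, 144 with the replicate block and 170 without Y+I animals 2 and 3. It was 120 to 348 with 1 array left out. Normexp correction gave 401 higher and 203 lower, against 139 higher and 300 lower, and moved the median of all features to 0.09 where it had been -0.02. Of the 8 genes tested, 1 passed with the main values, 3 passed under cyclic loess and with no filter, 2 passed under quantile normalization, normexp, the filter on all 8 arrays, trend with robust and array weights, 0 passed with the replicate block and 0 to 1 with 1 array left out. Drd2 missed the threshold with the replicate block (-0.60, adjusted p 0.102) and without Y+I animals 2 and 3 (-0.52, 0.112), and it passed in 2 of 8 fits with 1 array left out (-0.65 to -0.55). Drd1 passed under quantile normalization (-1.72), cyclic loess (-1.85), no filter (-1.16), array weights (-1.22) and without Y+I animals 2 and 3 (-1.65), was 0.15 under normexp, and ranged from -1.38 to -0.92 with 1 array left out. Its passes are included in the counts above. In the main fit and in every setting where Drd1 passed, its Y+I values were surrogates and not measured levels. Those p-values test no measured change. Penk passed under cyclic loess (-0.65), normexp (-0.60), no filter, the filter on all 8 arrays and trend with robust (-0.66 in each), and ranged from -0.77 to -0.59 with 1 array left out. Under normexp, Drd4 was 0.24 and Drd5 was 0.05. Adora2a, -0.01 with the main values, was 0.019 under quantile normalization, 0.0124 under median centring, 0.0122 in the value table, 0.11 under cyclic loess, 0.13 under normexp, 0.0735 with array weights, 0.15 without Y+I animals 2 and 3 and -0.0626 to 0.0702 with 1 array left out. Over the 8 genes tested, 134 comparisons with an alternative kept the direction and the side of the threshold, 11 newly passed, 8 no longer passed and 13 changed sign. The replicate block rests on animal numbers. After each feature's group mean was subtracted, same-numbered arrays correlated at -0.112 to 0.046 between groups, and differently numbered ones at -0.221 to 0.179. The cause of these shifts was not tested. Signals near background limit Drd1, Drd3 and Drd4 most.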
